A study of Homo sapiens with 10 samples.

Results

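Expression and promoter contacts of 10 transcription factor genes that specify or mark the neural crest (*MSX1*, *TFAP2A*, *TFAP2B*, *SNAI1*, *SNAI2*, *TWIST1*, *FOXD3*, *SOX9*, *SOX10* and *ETS1*) were followed in human ESCs and in ESC-derived neuroectodermal cells (NECs). The members were chosen by symbol, and all 10 were found among the 31017 genes of the RNA-seq count table. The start of each gene also lay on its own baited HindIII fragment, which gave 10 promoter baits of 21833 baits in the Promoter Capture Hi-C (PCHi-C) lists. The ESCs were the H9 line, an established human embryonic stem cell line for which the labels name no engineered allele, and the NECs were cells of the same line harvested on day 7 of neuroectodermal differentiation. Each cell type had 2 biological replicates in each assay, all samples derive from a single line, and ESC replicate 2 of PCHi-C joins technical replicates. The conventional Hi-C was not analysed here.

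The neural crest arises at the border between the neural plate and the surface ectoderm, delaminates from the dorsal neural tube and gives rise to peripheral neurons, glia, melanocytes and facial skeleton. Border factors such as MSX1 and the TFAP2 proteins act early and precede a set of crest specifiers, among them FOXD3, SOX9, SOX10 and ETS1. SNAI1, SNAI2 and TWIST1 are repressors and regulators of the epithelial to mesenchymal transition by which crest cells leave the epithelium. Several of these genes have other roles in stem cells: *FOXD3* is also known as a gene of pluripotent cells, and *SOX9* as one of neural stem cells and cartilage.

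The start regions of the 3 genes at which both the expression and the number of promoter contacts were higher in NECs are given here, 1 to a line. They are RefSeq promoter windows of GRCh38.p14 that run from 250 bases before to 50 bases after the gene start, written 5′ to 3′ on the strand of the gene. Promoter entries matched 4 of the 10 members, with a second entry for *TFAP2A*, and *SNAI2* was not looked up. Both strands were searched for CAGGTG (the Snail-type E-box), for CANNTG (any E-box, with the former as one case), for GCCNNNGGC (TFAP2 type), for ACAAAG (SOX type), for AGGAAG (ETS type) and for TAATTG (MSX homeodomain type), and each match is in capitals.
TFAP2A, chr6:10419610-10419909, minus strand: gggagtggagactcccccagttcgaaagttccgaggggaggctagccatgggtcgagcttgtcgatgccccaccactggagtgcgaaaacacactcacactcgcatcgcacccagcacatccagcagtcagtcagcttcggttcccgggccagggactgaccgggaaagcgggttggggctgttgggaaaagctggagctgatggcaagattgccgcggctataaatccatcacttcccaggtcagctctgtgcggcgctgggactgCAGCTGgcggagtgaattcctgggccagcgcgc
TFAP2B, chr6:50818621-50818920, plus strand: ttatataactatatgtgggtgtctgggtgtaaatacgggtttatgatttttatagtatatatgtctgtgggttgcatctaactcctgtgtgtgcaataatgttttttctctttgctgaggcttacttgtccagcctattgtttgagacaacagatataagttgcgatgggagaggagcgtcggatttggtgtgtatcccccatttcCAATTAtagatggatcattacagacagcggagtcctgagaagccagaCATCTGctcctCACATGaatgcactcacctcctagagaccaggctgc
MSX1, chr4:4859415-4859714, plus strand: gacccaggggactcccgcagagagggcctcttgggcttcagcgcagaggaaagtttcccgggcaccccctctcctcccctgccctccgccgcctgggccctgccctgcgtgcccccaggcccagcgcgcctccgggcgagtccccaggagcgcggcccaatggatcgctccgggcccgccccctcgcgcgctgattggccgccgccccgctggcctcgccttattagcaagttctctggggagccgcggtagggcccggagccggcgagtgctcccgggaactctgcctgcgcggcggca
Each of these windows has an exact copy inside the GRCh37 bait of its gene, at chr6:10419843-10420142 for *TFAP2A*, chr6:50786334-50786633 for *TFAP2B* and chr4:4861142-4861441 for *MSX1*. The *TFAP2A* window holds 1 E-box. The window of *TFAP2B* holds 2 E-boxes and 1 TAATTG, and the *MSX1* window holds none of the 6 motifs. Of 35116 promoter windows in the table, 68.7% hold a CANNTG and 7.38% a TAATTG. The windows also differ in base composition, with 43.0% G or C at *TFAP2B*, 61.7% at *TFAP2A* and 74.7% at *MSX1*, against a median of 58.7% over all windows. In the *FOXD3* window (chr1:63322317-63322616) 1 E-box and 1 ACAAAG were found, and the second *TFAP2A* window (chr6:10412342-10412641) held 3 copies of AGGAAG and no other motif.

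Reads counted on genes totalled 19234087 to 25356382 per library, and 17564 genes passed the filter on low counts. The pair of ESC libraries shared a sequencing lane and the pair of NEC libraries shared a different one, so lane and cell type cannot be told apart. The identity of the cells was checked on marker lists. Of 10 pluripotency markers 9 fell in NECs, and the summed level of the list went from 3645 and 3845 CPM (read counts scaled to the normalized library size) in the ESC replicates to 318 and 485 CPM in the NEC replicates. Of 10 neuroectoderm markers 8 rose, with list sums of 655 and 693 CPM in ESCs and 1807 and 1928 CPM in NECs. The other 2, *NES* and *OTX2*, did not reach the fold threshold given below. *NES* made up most of these sums (484 and 572 CPM in ESCs, 1347 and 1565 CPM in NECs), and *OTX2* was lower in NECs (log2 fold change −1.33). The NEC replicates were unlike each other in one respect that touches the genes described here: 5 of the 10 pluripotency markers were over 2-fold higher in NEC replicate 2, and many of the crest regulators were over 2-fold higher in NEC replicate 1. Values of the regulators are therefore also given without each of these libraries where that changes a call or its size. In such bulk libraries fewer cells of a type and less RNA per cell cannot be told apart.

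To ask which regulators differ between the cell types, all tested genes were fitted with edgeR's quasi-likelihood test, and a call needed an adjusted p (Benjamini-Hochberg) under 0.05 together with an absolute log2 change of more than 1.5. In NECs 5 regulators rose (*TFAP2A*, *TFAP2B*, *SNAI2*, *SOX9* and *MSX1*, 5 of 10), while 11.4% of all tested genes were called higher. A single regulator, *ETS1*, fell (1 of 10), against 9.68% of all tested genes. The other 4 (*SNAI1*, *TWIST1*, *FOXD3* and *SOX10*) were not called. The median log2 fold change of the 10 regulators was 2.62, and that of all tested genes was 0.014. The plot of CPM by library shows each value.

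**Figure D1:**
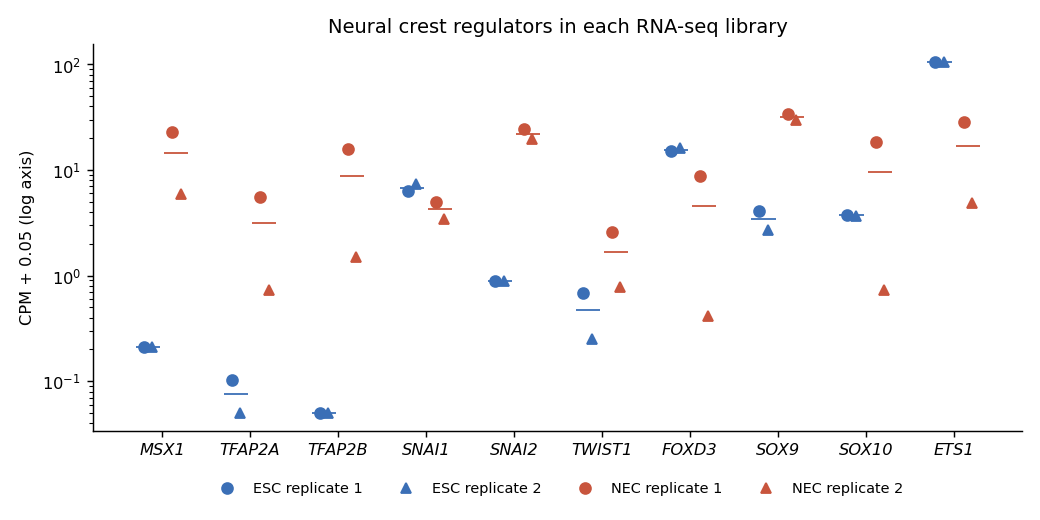
Expression of the 10 regulators in each RNA-seq library (CPM plus 0.05, log axis), with ESC libraries in blue and NEC libraries in red, circles for replicate 1, triangles for replicate 2 and short lines for the mean of 2 replicates. Both NEC libraries lie above both ESC libraries for *MSX1*, *TFAP2A*, *TFAP2B*, *SNAI2*, *TWIST1* and *SOX9*, and for *SOX10* the 2 NEC libraries lie on opposite sides of the ESC libraries.

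Among the border factors, *MSX1* (ENSG00000163132, chr4:4861393-4865663), a homeodomain repressor downstream of BMP signals, had 3 and 4 reads in the ESC replicates, against 494 and 145 in the NEC replicates. The groups did not overlap, although NEC replicate 1 was well above NEC replicate 2. Its level was 0.160 ± 0.0020 CPM in ESCs and 14.5 ± 12.2 CPM in NECs (SD, n = 2), a log2 fold change of 6.44 with an SE of 0.91 (edgeR adjusted p = 0.00133). *TFAP2A* (ENSG00000137203, chr6:10393419-10419892), which encodes the AP-2α factor of ectoderm and crest, had 1 and 0 reads in ESCs and 117 and 17 in NECs. It was thus near zero in both ESC libraries and low in NEC replicate 2. The ratio of summed counts per normalized library was 127 with an exact 95% interval of 22.4 to 5049, which covers counting error only, and the edgeR adjusted p was 0.0102. *TFAP2B* (ENSG00000008196, chr6:50786436-50815326), its paralog on the same chromosome, had 0 reads in both ESC libraries and 339 and 36 in the NEC libraries. Against a floor of 3 counts per library *TFAP2B* was at least 61.8-fold higher in NECs (edgeR adjusted p = 0.0125). All 3 border factors kept their calls without either NEC library, but the size of the change moved. The fitted log2 fold change of *TFAP2B*, 10.59 with all libraries, was 8.06 without NEC replicate 1, which held most of its reads, and 11.42 without NEC replicate 2. For *MSX1* the log2 fold change was 5.15 without NEC replicate 1 and 7.12 without NEC replicate 2. That of *TFAP2A*, 6.74 with all libraries, was 4.61 without NEC replicate 1, 7.57 without NEC replicate 2, 9.16 without ESC replicate 1 and 5.70 without ESC replicate 2.

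The 3 genes of the epithelial to mesenchymal transition went different ways. *SNAI2* (ENSG00000019549, chr8:49830249-49834299), the Slug repressor, had 16 and 21 reads in ESCs and 524 and 485 in NECs. Both NEC libraries were high and alike. It rose from 0.849 ± 0.0013 to 22.1 ± 3.44 CPM (SD, n = 2), a log2 fold change of 4.69 with an SE of 0.22 (edgeR adjusted p = 2.9e-05). *SNAI1* (ENSG00000124216, chr20:48599536-48605423), the Snail repressor of E-cadherin, had 118 and 180 reads in ESCs and 106 and 84 in NECs. Its CPM of 6.25 and 7.28 in ESCs and 4.96 and 3.40 in NECs did not overlap, but the log2 fold change of −0.70 with an SE of 0.25 (edgeR adjusted p = 0.0495) did not reach the fold threshold. *TWIST1* (ENSG00000122691, chr7:19060614-19157295), a bHLH factor of crest mesenchyme, was low in all libraries, with 12 and 5 reads in ESCs and 54 and 18 in NECs. Its CPM was higher in both NEC libraries, by a small margin in replicate 2, and the log2 fold change of 1.99 with an SE of 0.76 (edgeR adjusted p = 0.0585) was not called. The *TWIST1* value moved both ways when a library was left out. It was 0.87 without NEC replicate 1 (edgeR adjusted p = 0.324) and 1.33 without ESC replicate 2 (adjusted p = 0.219), neither of which was called. Without NEC replicate 2 it was 2.65 (edgeR adjusted p = 0.00677), without ESC replicate 1 it was 2.94 (adjusted p = 0.0289), and with no filter on low counts it was 1.99 (adjusted p = 0.00367), each past both thresholds.

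Of the crest specifiers, *SOX9* (ENSG00000125398, chr17:70117161-70122561), an HMG-box factor, had 77 and 66 reads in ESCs and 726 and 731 in NECs. The NEC libraries were alike and far above both ESC libraries. *SOX9* rose from 3.37 ± 1.00 to 31.8 ± 3.07 CPM (SD, n = 2), a log2 fold change of 3.25 with an SE of 0.22 (edgeR adjusted p = 8.7e-05). The noncoding gene AC005152.2, which overlaps *SOX9* on the opposite strand, had 3, 3, 21 and 28 reads. *ETS1* (ENSG00000134954, chr11:128328656-128457437), an ETS-domain factor of cranial crest and of blood and endothelial lineages, had 2010 and 2605 reads in ESCs and 609 and 120 in NECs. Both ESC libraries were high, and NEC replicate 1 lay between them and NEC replicate 2. The level went from 106 ± 0.79 to 16.7 ± 16.7 CPM (SD, n = 2), and *ETS1* fell by 2.68 on the log2 scale (SE 0.65, edgeR adjusted p = 0.0119). This log2 fold change was −4.44 without NEC replicate 1 and −1.90 without NEC replicate 2.

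*FOXD3* (ENSG00000187140, chr1:63788730-63790797), a forkhead repressor, had 284 and 399 reads in ESCs and 186 and 9 in NECs. The ESC libraries were alike, with a mean of 15.6 ± 0.77 CPM (SD, n = 2), whereas the NEC libraries were at 8.70 and 0.36 CPM. The log2 fold change of −1.81 with an SE of 0.94 (edgeR adjusted p = 0.136) was not called. It was called without NEC replicate 1 (−5.39, adjusted p = 2.7e-05), with no filter on low counts (−1.81, adjusted p = 0.00275) and with the replicate number as a block (−2.36, adjusted p = 0.0448). Without NEC replicate 2 the log2 fold change was −0.85 (edgeR adjusted p = 0.00578), which is under the fold threshold, so the leave-one-out values of *FOXD3* ran from −5.39 to −0.85. An antisense gene, RP4-792G4.2, overlaps *FOXD3* and had 776, 1063, 106 and 23 reads in ESC replicates 1 and 2 and NEC replicates 1 and 2. Counting disregarded strand, so reads in the overlap cannot be assigned to one of the 2 genes.

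*SOX10* (ENSG00000100146, chr22:38366693-38383429), the HMG-box factor that marks migrating crest and its glial and melanocyte derivatives, had 70 and 90 reads in ESCs and 393 and 17 in NECs. The NEC libraries thus lay on both sides of the ESC libraries, at 18.4 and 0.69 CPM against 3.71 and 3.64 CPM. With both NEC libraries the log2 fold change was 1.36 (SE 1.12, edgeR adjusted p = 0.323). It was 2.32 (edgeR adjusted p = 0.000118) without NEC replicate 2 and −2.40 (edgeR adjusted p = 0.00211) without NEC replicate 1, so the direction of *SOX10* rests on which NEC library is used. *SOX10* lies within the larger *POLR2F* locus on the opposite strand. *POLR2F*, which had 1082, 1410, 818 and 1051 reads, may share reads with *SOX10* in these unstranded counts.

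The gap between the NEC replicates was then measured for every regulator. Of the 10, 7 (*SOX10*, *FOXD3*, *TFAP2B*, *ETS1*, *TFAP2A*, *MSX1* and *TWIST1*) were over 2-fold higher in NEC replicate 1 than in replicate 2, which held for 1.06% of all tested genes (187 of 17564). No regulator was over 2-fold higher in NEC replicate 2, against 155 of all tested genes. *SOX10* had the highest ratio of all 17564 tested genes, at 3.99 on the log2 scale, *FOXD3* was the second at 3.41 and *TFAP2B* was ranked 4 at 3.06. *ETS1* (2.43), *TFAP2A* (2.33), *MSX1* (1.89) and *TWIST1* (1.30) were ranked 9, 10, 28 and 87. *SNAI1* (0.48), *SNAI2* (0.31) and *SOX9* (0.19) lay within the central 90% of all tested genes, which ran from −0.50 to 0.51. The ESC replicates did not show this gap: the largest log2 ratio of ESC replicate 1 over 2 among the regulators was 0.69, for *TWIST1* with 12 and 5 reads. In the same libraries the pluripotency marker *TDGF1* had 39 and 274 reads in NEC replicates 1 and 2, after 10287 and 15913 in ESC replicates 1 and 2. The part of such differences in cell state in the regulators' values was not tested.

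**Figure D2:**
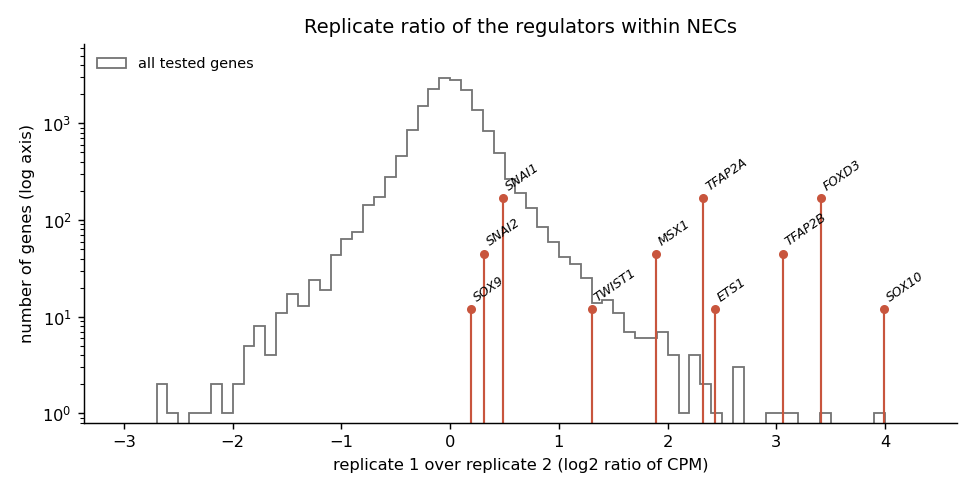
Log2 ratio of CPM in NEC replicate 1 over NEC replicate 2, as a histogram over all 17564 tested genes (grey outline, log axis) with each regulator marked in red at its ratio. The height of a red point serves only to separate the names. The 7 regulators with the highest ratios lie beyond 1 on the log2 scale, and *SOX9*, *SNAI2* and *SNAI1* lie near the centre.

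The genes whose profiles over the 4 libraries were nearest to each called regulator were found by the Euclidean distance of centred log2 CPM values (pseudocount 0.5). For *TFAP2A* these were *EN2* (distance 0.36) and *EN1* (0.41), and for *TFAP2B* they were *ITGA8* (0.36) and *PAX7* (0.53). *ZIC1* (0.21) and *RSPO3* (0.27) were nearest to *MSX1*. For the regulators with even NEC replicates the nearest profiles were closer, with *NECAB2* (0.09) for *SNAI2* and *ASTN1* (0.11) and *PHC2* (0.13) for *SOX9*. *ETS1* had no near neighbour at that distance, and its nearest profiles were *TNMD* (0.67) and *ARHGAP10* (0.82). With 4 libraries these distances are a description of likeness only.

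Paralogs of the regulators did not share a direction. Among 10 paralogs with a count, 8 were tested, 2 rose and 3 fell. *MSX2*, which acts beside *MSX1*, had 8 and 14 reads in ESCs, 391 and 39 in NECs and a log2 fold change of 4.28 with an SE of 1.18 (edgeR adjusted p = 0.0187). It repeated the gap between NEC replicates, at 3.18 on the log2 scale. *FOXD2* rose by a log2 fold change of 2.48 on few reads, 4 and 1 in ESCs against 14 and 17 in NECs. *ETS2* fell by 2.16 on the log2 scale (SE 0.10), *TFAP2C*, an AP-2 gene of early ectoderm and germ cells, fell by 2.06 (SE 0.33) and *SNAI3* fell by 1.70 (SE 0.30). *SOX8*, the third SOXE gene beside *SOX9* and *SOX10*, had 111 and 131 reads in ESCs and 289 and 263 in NECs, a log2 fold change of 1.11 (SE 0.20) that did not reach the fold threshold. *TFAP2E* (log2 fold change −0.83) and *TWIST2* (−0.58) were not called. *FOXD4* and *TFAP2D* had at most 4 reads in any library and were not tested.

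Wider lists of the crest programme were described in the same way. Of 12 neural plate border genes 10 were tested and 6 rose, with a median log2 fold change of 4.68. The dorsal neural tube factors *PAX3* (5 and 8 reads in ESCs, 1416 and 441 in NECs), *PAX7* (0 and 1, then 272 and 53) and *ZIC1* (2 and 6, then 515 and 149) were higher in NEC replicate 1, whereas *HES4* had 27 and 15 reads in ESCs and 1109 and 903 in NECs. Another border gene that rose, *GBX2*, went the other way between the NEC replicates, with 23 and 62 reads in ESCs and 1028 and 2783 in NECs. Among 12 further crest specifiers 5 rose and 1 fell (median 1.34). The nuclear receptors *NR2F1* (0 and 2 reads, then 4252 and 3103) and *NR2F2* (1 and 2, then 2405 and 1869) moved most, followed by *SOX5* (log2 fold change 4.13) and *SOX6* (3.63).

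Delamination and migration genes numbered 18, of which 9 rose and 1 fell (median 1.12). The gene that fell was *CDH1*, which encodes E-cadherin, with 2563 and 4324 reads in ESCs and 177 and 251 in NECs (log2 fold change −4.07, SE 0.17). The cadherin genes *CDH6*, *CDH11* and *CDH7* rose, with log2 fold changes of 4.09, 4.08 and 2.96. *CDH2*, which encodes N-cadherin, the main cadherin of neural cells, had 6379 and 7655 reads in ESCs and 9169 and 11341 in NECs, and its log2 fold change of 0.46 with an SE of 0.10 was not called. Of 18 derivative genes 14 were tested, 9 rose and 1 fell (median 1.79). Among those that rose were *COL2A1*, a collagen gene of cartilage (47 and 73 reads in ESCs, then 11752 and 14626 in NECs), and *PRRX1*, a homeobox gene of mesenchyme (4 and 2, then 118 and 103). Of 14 genes of the signals that induce the crest, 13 were tested, 5 rose and 2 fell (median 0.73). *WNT1* had 0 reads in ESCs and 171 and 32 in NECs, which is at least 33.2-fold higher against 3 counts per library, and *WNT3A* had 7 and 5 reads and then 338 and 113. The Notch ligand *DLL1* (log2 fold change 6.27) and *BMP7* (3.45) rose with even NEC replicates.

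Markers of other cell types that could be present were read beside these values. Of 9 tested mesendoderm markers 8 fell. The summed level of that list was 92.7 and 221 CPM in ESC replicates 1 and 2, and 8.38 and 8.47 CPM in the NEC libraries. The ESC replicates were thus uneven for these markers, and fewer of them were called without ESC replicate 2. Of 10 markers of surface ectoderm and placodes, tissues that also express AP-2 genes, 6 were tested, 3 rose (*GRHL3* among them, by a log2 fold change of 3.09) and 2 fell, one of them the paralog *TFAP2C* named above. Of the defining markers *KRT14* had no read in any library, *KRT5* had at most 1 and *TP63* at most 2. The summed level of that list was 125 and 144 CPM in ESCs and 123 and 129 CPM in NECs. Mesenchyme markers (4 of 9 tested rose, 1 fell) summed to 562 and 616 CPM in ESCs and to 832 and 747 CPM in NECs, and neuron markers (5 of 8 tested rose) to 288 and 301 CPM and to 378 and 358 CPM. Most of the neuron sums was *TUBB3* (211 and 226 CPM in ESCs, 214 and 224 CPM in NECs), which was not called. Without one or the other NEC library the number of genes called moved by at most 2 in each list. The further specifiers went from 6 called to 8 without NEC replicate 1 and 7 without NEC replicate 2, and the mesendoderm markers from 8 to 6 without NEC replicate 2. Mesenchyme markers went from 5 to 4 without NEC replicate 1 and to 6 without NEC replicate 2, and the surface ectoderm and placode markers from 5 to 4 without NEC replicate 1. The part of these cells in the regulators' values was not tested.

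PCHi-C was then used to ask which fragments the regulator promoters contact. A promoter-interacting region (PIR) is the HindIII fragment that a bait was called to contact with a CHiCAGO score of at least 12, which rises as a contact is less likely under the background model once distance is weighed in. The deposited lists hold such calls for each replicate and for both replicates combined (merged), without read numbers, so the depth is unknown and single scores carry no interval. Fragments read from the GRCh37 genome had the HindIII site at both ends in 238 of 238 baits and PIRs of the regulators other than *SNAI2*, whose fragments were not read. The first 120 bases of the PIR with the highest merged NEC score are shown for 4 of the regulators, with the HindIII site in capitals, on the plus strand of GRCh37. A fragment has a cut end on either side, and the lists do not say which of them was joined to the promoter. Each printed stretch begins 1 base before the listed fragment, since HindIII cuts after the first base of its site.
SNAI1 PIR, chr20:48687790-48687909: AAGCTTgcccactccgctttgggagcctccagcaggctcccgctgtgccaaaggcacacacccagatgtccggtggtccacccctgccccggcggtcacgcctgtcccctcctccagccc
TFAP2B PIR, chr6:51708188-51708307: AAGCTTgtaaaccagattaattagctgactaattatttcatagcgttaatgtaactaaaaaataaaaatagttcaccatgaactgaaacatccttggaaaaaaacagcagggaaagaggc
TWIST1 PIR, chr7:19481475-19481594: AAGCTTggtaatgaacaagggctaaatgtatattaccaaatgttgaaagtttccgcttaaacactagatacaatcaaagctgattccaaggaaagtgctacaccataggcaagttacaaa
MSX1 PIR, chr4:4676649-4676768: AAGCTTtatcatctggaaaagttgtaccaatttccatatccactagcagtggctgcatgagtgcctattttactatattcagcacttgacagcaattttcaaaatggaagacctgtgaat

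Over the 10 baits the merged lists held 67 PIRs in ESCs and 120 in NECs. The single replicates gave 67 and 65 in ESCs and 125 and 80 in NECs. The complete lists differ in length (95283 and 86429 calls in ESCs, 100305 and 81168 in NECs), and scaled to the same list length (PIRs per 10000 calls) the regulator baits had 7.03 and 7.52 in the ESC replicates, against 12.5 and 9.86 in the NEC replicates. The NEC replicates were thus above both ESC replicates, with NEC replicate 1 higher than NEC replicate 2. The median number of PIRs per regulator bait was 5 in the merged ESC list and 13.5 in the merged NEC list, but in single replicates it was 6 and 5.5 for ESCs, against 8 and 6 for NECs, so the gap between cell types was far smaller in single replicates than in the merged lists. Over the 14924 baits that hold a protein-coding gene start, the median was 3 in each of the 6 lists. With 2 replicates against 2 no permutation test could reach p under 0.05, and the replicate values are given in its place.

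At 4 of the 10 baits (*TFAP2A*, *TFAP2B*, *ETS1* and *MSX1*) both NEC replicates had more PIRs than both ESC replicates, which held for 13.8% of the baits with a protein-coding gene start. The opposite order was seen at 0 of the 10 baits and at 12.6% of those baits. Tied numbers counted as neither order. The median of those baits was 3 PIRs in each list, below that of the regulator baits, so these percentages set unlike baits side by side. Of the 67 merged ESC PIRs of the regulators 32 were also called in NECs (47.8%, 95% Wilson interval 36.3% to 59.5%), which is 26.7% of the 120 NEC PIRs (19.6% to 35.2%). Over all baits with a protein-coding gene start the shares were 45.01% and 44.75%. The interval of the regulators’ ESC share holds the value of those baits, and the interval of their NEC share lies below it. Both shares count the same 32 PIRs, so the gap between them restates the gap between 67 and 120 PIRs. Their intervals cover counting error only, and neighbouring fragments are not independent. Among the shared PIRs the merged score was higher in NECs at 19 and lower at 13, a count that was not made over other baits.

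**Figure D3:**
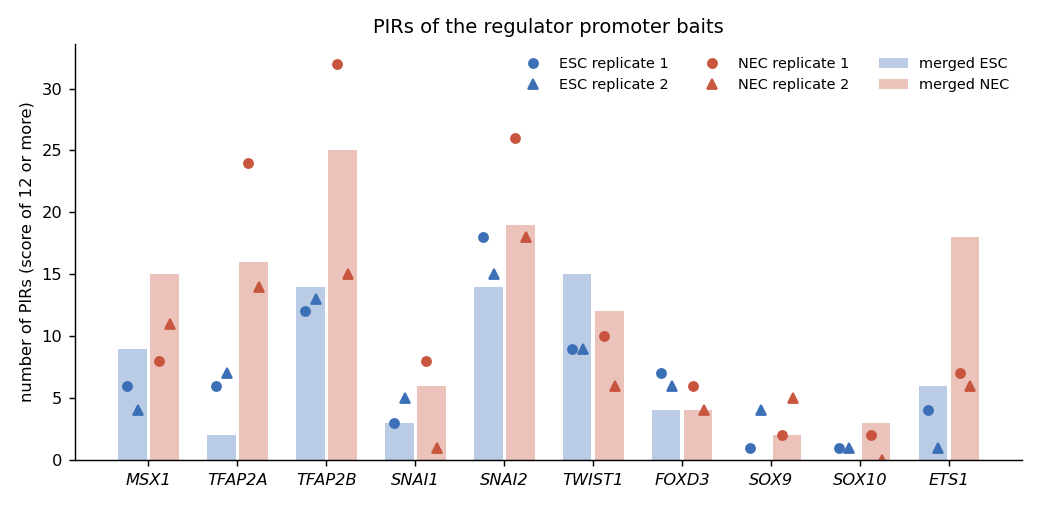
Number of PIRs with a score of at least 12 at the promoter bait of each regulator, with bars for the merged lists and points for single replicates (blue ESC, red NEC; circles replicate 1, triangles replicate 2). At *TFAP2A*, *TFAP2B*, *MSX1* and *ETS1* both NEC points lie above both ESC points, and at *SNAI2* the lower NEC point equals the higher ESC point at 18.

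The 155 merged PIRs of the regulators all lay on the chromosome of their bait, at a median distance of 414 kb and at most 1671 kb. In GENCODE lifted to GRCh37, 48 were intergenic, 50 lay in an intron without touching an exon and 57 overlapped an exon, and 14 were themselves baits. Relative to the direction of transcription 55 were upstream and 100 downstream of the gene start. Over all lists 4 PIRs were called in all 4 replicates, 13 in both NEC replicates and neither ESC replicate, and 4 in both ESC replicates and neither NEC replicate. Of the 13, 4 belonged to *TFAP2A* and 4 to *TFAP2B*. These classes were not counted over other baits, so whether 13 against 4 is unusual was not tested. The plot of PIR positions shows the 4 baits whose replicates did not overlap. Stretches of neighbouring PIRs described for single baits were delimited after their positions were seen and carry no test.

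**Figure D4:**
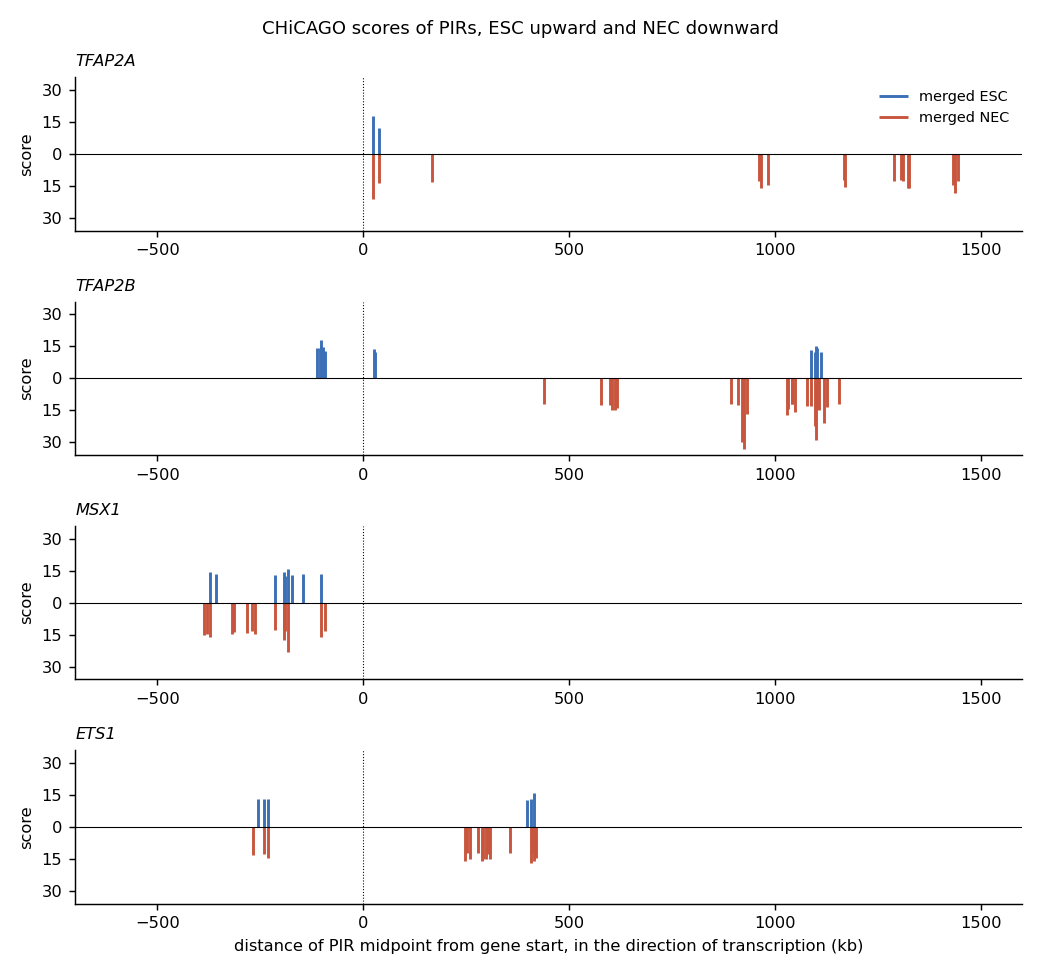
Merged CHiCAGO scores of the PIRs of *TFAP2A*, *TFAP2B*, *MSX1* and *ETS1* against the distance of the PIR midpoint from the gene start in kb, positive in the direction of transcription, with ESC scores drawn upward (blue) and NEC scores downward (red). In NECs *TFAP2A* has 13 PIRs between 900 and 1500 kb, where the merged ESC list has none.

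The *TFAP2A* bait (chr6:10408660-10429428) had 6 and 7 PIRs in the ESC replicates, 24 and 14 in the NEC replicates, 2 in the merged ESC list and 16 in the merged NEC list. Either NEC replicate was thus at least 2 times as high as either ESC replicate. Both merged ESC PIRs were kept in NECs. The highest score in either cell type was at the neighbouring bait fragment over the 3′ part of *TFAP2A* itself (chr6:10389617-10402919, 23.6 kb downstream), with 17.86 in ESCs and 20.94 in NECs. Between 900 and 1500 kb downstream there were 13 PIRs in the merged NEC list and none in the merged ESC list, with 15 and 9 in the NEC replicates and 3 and 2 in the ESC replicates. Of these, 4 were called in both NEC replicates and neither ESC replicate, and the 3 with the highest merged scores are named. The fragment chr6:8982193-8987179, over an exon of the noncoding gene *HULC* in this annotation, scored 19.25 and 16.02 in the replicates and 18.41 merged. A second *HULC* fragment, chr6:9095979-9099067, scored 17.40 and 12.29 (16.09 merged). The intergenic fragment chr6:9453089-9458469 scored 15.09 and 15.88 (16.04 merged). In the opposite direction, chr6:8698429-8708257 was called in both ESC replicates (12.12 and 12.59) and in no NEC list, but it was absent from the merged ESC list.

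The *TFAP2B* bait (chr6:50785086-50786647) is the shortest of the 10, at 1562 bp. It had 12 and 13 PIRs in the ESC replicates, against 32 and 15 in the NEC replicates, with 14 merged in ESCs, 25 merged in NECs and 3 shared. NEC replicate 2 exceeded the ESC replicates by only 2. The merged NEC number is above that of 97.8% of baits with a protein-coding gene start. The positions of the contacts also differed between the merged lists. A group of 7 merged ESC PIRs 90 to 120 kb upstream, over and beside its paralog *TFAP2D*, had 0 PIRs in every NEC list, but only 2 and 3 of them reached the threshold in the ESC replicates. The highest ESC score of *TFAP2B* (18.09) was in this group, at chr6:50683864-50685213 in an intron of *TFAP2D*, with 12.33 and 14.52 in the replicates. Between 890 and 1200 kb downstream, across *PKHD1*, a gene of kidney epithelium, 19 merged PIRs were found in NECs and 5 in ESCs, with 20 and 13 in the NEC replicates and 8 and 8 in the ESC replicates. Here the NEC maximum of 33.38 lay at chr6:51708189-51713633, a cut end of which is printed above, with 27.70 and 23.01 in the NEC replicates and 12.27 in ESC replicate 2 alone. The fragment before it (chr6:51705017-51708188) scored 26.83 and 18.96 in the NEC replicates and the fragment after it (chr6:51713634-51723044) 15.55 and 13.97 (16.66 merged), and neither was called in an ESC replicate. The fragment chr6:51813939-51816024 in an intron of *PKHD1* also belonged to this class (17.17 and 13.18, 17.07 merged). A further PIR of *TFAP2B*, chr6:51885102-51886228, was called in all 4 replicates, with 14.89 and 14.35 in ESCs and 27.61 and 18.90 in NECs. Its scores in both NEC replicates were above those in both ESC replicates.

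At the *MSX1* bait (chr4:4849184-4866907) 6 and 4 PIRs were found in the ESC replicates, against 8 and 11 in the NEC replicates, with 9 and 15 in the merged lists and 6 shared. NEC replicate 2 was here the higher one. All merged PIRs lay upstream, over *STX18* and its antisense gene *STX18-AS1*. From 250 to 400 kb upstream there were 8 merged NEC PIRs against 2 merged ESC PIRs. The replicates differed less there, with 5 and 5 in NECs against 4 and 1 in ESCs. From 90 to 250 kb each merged list had 7, with 3 and 5 in the NEC replicates and 2 and 3 in the ESC replicates. Both merged lists peaked at chr4:4676650-4681932 in an intron of *STX18-AS1*, at −182 kb from the gene start, with 14.86 in ESC replicate 1, 17.11 and 16.28 in the NEC replicates and 16.01 and 23.05 in the merged lists. A pair of fragments was called in both NEC replicates and neither ESC replicate. The first, chr4:4471679-4477369 over an exon of *STX18*, scored 12.97 and 13.44. The second, chr4:4753735-4760913, scored 12.29 and 12.12, but it had a score of 13.43 in the merged ESC list, so its absence from the ESC replicates is not an absence from ESCs.

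The *ETS1* bait (chr11:128449766-128458801) had 4 and 1 PIRs in the ESC replicates, against 7 and 6 in the NEC replicates, with 6 and 18 in the merged lists and 4 shared. The merged NEC number is much above either NEC replicate, and only 1 of the 18 was called in both of them. Between 240 and 310 kb downstream, beyond the 3′ end of the gene, the merged NEC list had 9 PIRs and the merged ESC list none, with 4 and 3 in the NEC replicates and 0 and 0 in the ESC replicates. The PIR called in both NEC replicates, the intergenic fragment chr11:128167853-128171584, scored 12.12 and 12.50 (15.94 merged). The ESC maximum of 16.05 lay at chr11:128041898-128045887 over the noncoding gene *LINC02725*, which scored 15.98 in NECs, and the NEC maximum of 16.74 lay at the nearby chr11:128050140-128052645. *ETS1* is thus the regulator at which more PIRs were counted in NECs while its expression fell.

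The *SNAI2* bait (chr8:49832730-49835597) had the second highest number of merged NEC PIRs, and with 18 and 15 in the ESC replicates, against 26 and 18 in the NEC replicates, the cell types met at 18. There were 7 shared PIRs. The PIR called in all 4 replicates, the intergenic fragment chr8:49223393-49227622 at 609 kb downstream, scored 12.39 and 15.78 in ESCs and 16.05 and 19.20 in NECs. It lies within a run of neighbouring fragments that holds both maxima, chr8:49219508-49223392 in ESCs (16.33, and 15.55 in NECs) and chr8:49227623-49237358 in NECs (20.07). The fragments chr8:49206972-49217648 (15.62 and 13.40) and chr8:49306942-49312300 (15.50 and 12.64) were called in both ESC replicates and neither NEC replicate. In the other direction chr8:49173942-49174333 was called in both NEC replicates (13.41 and 12.07) and neither ESC replicate. The 25.8-fold higher expression of *SNAI2* thus stood beside PIR numbers whose replicates overlapped.

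*SNAI1* had the highest single score of the 10 baits. Its bait (chr20:48596604-48605495) gave 3 and 5 PIRs in the ESC replicates, against 8 and 1 in those of NECs, so the NEC replicates lay on both sides of the ESC replicates. The intergenic fragment chr20:48687791-48693528, 91.1 kb downstream, was called in every list, with 15.99 and 22.87 in the ESC replicates, 34.64 and 25.83 in the NEC replicates and 23.75 and 41.01 in the merged lists. It was the highest-scoring PIR of *SNAI1* in both cell types, and its NEC scores were above both ESC scores. At *TWIST1* (bait chr7:19154064-19160186) there were 9 and 9 PIRs in the ESC replicates, against 10 and 6 in those of NECs, so the groups overlapped. There the merged lists held 15 and 12 PIRs with 6 shared. The fragment chr7:19481476-19486939, at −327 kb from the gene start in an intron of a noncoding gene, was called in all 4 replicates, with 17.75 and 15.35 in ESCs and 19.55 and 14.36 in NECs, and was the highest-scoring PIR of *TWIST1* in both merged lists (22.35 and 24.17). Its replicate scores overlapped between the cell types.

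The 3 remaining baits had few PIRs. The *SOX9* bait (chr17:70108137-70121329) had 1 and 4 in the ESC replicates, against 2 and 5 in the NEC replicates, and its only merged PIRs were 2 adjoining fragments in NECs, 419 and 420 kb downstream in an intron of *LINC00511*. The second of these, chr17:70536168-70537801, was called in both NEC replicates (13.30 and 12.38) and in no ESC list. The *SOX10* bait (chr22:38382148-38393335) had 1 and 1 PIRs in the ESC replicates, against 2 and 0 in those of NECs. Its merged NEC list held 3, with a highest score of 13.38 at chr22:38407798-38425371 within *POLR2F*, and its merged ESC list held none. Of those 3, none was called in NEC replicate 2. *FOXD3* (bait chr1:63769568-63792897, the longest at 23330 bp) had 7 and 6 PIRs in the ESC replicates, against 6 and 4 in those of NECs, and 4 in each merged list with 2 shared. Its ESC maximum of 15.73 lay at the bait that holds the start of *ALG6* (chr1:63826788-63834880), which scored 13.06 in NECs, and its NEC maximum of 13.40 lay at the intergenic fragment chr1:63412420-63419718, which scored 12.05 in ESCs. No PIR of *FOXD3* or *SOX10* was called in both replicates of a single cell type and in neither of the other.

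Expression and contacts can be set side by side for the 10 regulators. *TFAP2A*, *TFAP2B* and *MSX1* had higher expression and more PIRs in both NEC replicates. *SNAI2* and *SOX9* rose in expression with PIR numbers that overlapped between cell types, *ETS1* fell in expression with more PIRs, and at the 4 regulators that were not called the PIR numbers overlapped. The replicate numbers of the 2 assays are not stated to mark the same cultures, so the gap between NEC replicates 1 and 2 in RNA-seq and that in PCHi-C were not linked. The number of PIRs at a bait says nothing of what a contact does, and the activity of the PIRs was not analysed here.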

How the data were processed

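RNA-seq and PCHi-C of H9 ESCs and day 7 NECs were analysed, with 2 biological replicates of each. The deposited RNA-seq counts are raw reads per Ensembl gene, made by the authors with adapter trimming, TopHat alignment to GRCh37 and strand-blind counting in SeqMonk. The submitters' processing notes name Bowtie 1.0.0, TopHat2 2.0.8b and hg19. For PCHi-C the authors mapped reads with HiCUP and deposited lists of fragment pairs with a CHiCAGO score of at least 12, per replicate and merged.

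Counts were fitted in edgeR 4.0.16 (R 4.3.3; filterByExpr with a minimum count of 10, TMM, quasi-likelihood test, prior count 0.125). DESeq2 1.42.0 was an alternative, as were other filters, normalizations and thresholds and leaving out each replicate. The fit was first tested on simulated data. Values are mean ± SD, and a floor of 3 counts per library set lower bounds. P-values rest on the spread between these 2 replicates per cell type, with the spread of each gene drawn towards a trend over all tested genes. PIRs were read from pairs listed bait first, so that a contact between baits counts for the bait named first. Listings that name a regulator bait second were not added, and some may repeat a pair already counted. In the merged ESC and NEC lists these numbered 0 and 3 for *SOX10*, 2 and 5 for each of *TFAP2B* and *SNAI2*, and 4 and 1 for *TWIST1*. Each of the other regulators had at most 2 per list. Interaction lists were read in Python 3.11.15.

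The members and gene lists were chosen with earlier results of these data known. All regulators and paralogs are named, up to 4 called genes of largest change per further list, the 2 nearest profiles per called regulator, and per bait the PIRs of highest merged score and those called in all 4 replicates or in both of one cell type only (up to 3). *CDH2* and *GBX2* were added after their values were seen. Some genes that this rule names are not reported here.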

Additional observations from a re-analysis of the deposited data

How the results depend on the processing

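The 5 regulators called higher and *ETS1* kept their direction and stayed called under every alternative in which they were tested, and *TFAP2A* was not tested at a minimum count of 30. The number of regulators called ranged from 5 to 8. Dropping the fold change threshold called 10738 genes in all, 5529 higher and 5209 lower, and 2 regulators lower. Without a filter on low counts 2 regulators were called lower, as with the replicate number as a block. Leaving out each RNA-seq replicate gave 5 to 7 regulators higher, 1 to 3 lower and 6 to 8 in all, and 3294 to 4105 genes called. *SOX10* ran from −2.40 without NEC replicate 1 to 2.32 without NEC replicate 2. The replicate numbers were not shown to pair the samples, since the deviations of same-numbered libraries correlated by 0.074 over tested genes. The replicate block moved the genes called to 1987 higher and 1711 lower and added the calls of *FOXD3* (−2.36) and *TWIST1* (1.93).

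For the PIRs, a score of at least 15 lowered the NEC minus ESC difference in median PIR number from 8.5 to 2.5 and the shared ESC PIRs to 35.3%, and counting PIRs within 10 kb as shared raised that share to 71.6%. Putting a single replicate in place of a merged list gave differences of 1 to 8, shares of 25.4% to 35.8% and 5 to 9 baits whose numbers do not overlap, since 1 value remains in that cell type. The difference of a single bait then changed sign for *SNAI1* (−2 to 5), *TWIST1* (−9 to 3), *SOX9* (−2 to 5) and *MSX1* (−1 to 11). Baits holding any annotated transcript start were the same fragments, and leaving out PIRs that are baits kept 4 non-overlapping baits. At a score of at least 15 the replicates of *ETS1* no longer separated, since no score in its NEC replicate 1 exceeded 13.71. PCHi-C depth is unknown. No replicate block was fitted to the PIR numbers, which are given without a test.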
